A study of Mus musculus with 12 samples.

Results

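NF-κB is a family of dimeric transcription factors that switches on cytokine, chemokine and survival genes when a cell senses microbes, damaged cells, foreign DNA or inflammatory cytokines. In a resting cell the dimers are held in the cytoplasm by IκB proteins. A kinase complex, IKK, marks the IκB proteins for destruction, the dimers enter the nucleus, and among the genes they then transcribe are the IκB proteins and the ubiquitin-editing enzyme A20, which switch the signal off again. In the colon the pathway is active both in epithelial cells, where it protects the barrier, and in myeloid and stromal cells, where it drives the inflammatory response to injury. STING, the sensor adaptor encoded by Tmem173, is one of the routes by which cytosolic DNA reaches NF-κB.

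The genes described here are the 10 rows of the gene table that carry the symbols of the 5 NF-κB subunits (Nfkb1, Nfkb2, Rel, Rela and Relb) and of 5 regulators that NF-κB itself induces (Nfkbia, Nfkbie, Nfkbiz, Bcl3 and Tnfaip3), out of 54532 genes. Their transcripts were measured by RNA sequencing of whole colon in 12 mice, which form 4 groups of 3. Tmem173fl/fl mice (WT in the labels) carry a floxed Tmem173 gene and no Cre. Tmem173iΔmye mice (CRE in the labels) carry the same floxed gene and a tamoxifen-inducible Cre driven by Lyz2, a gene of neutrophils, monocytes and macrophages. The design aims to delete Tmem173 in cells that express Lyz2 at the time of induction and to leave it in cell types that do not. Which cells of these colons had lost it was not measured here. Mice of both genotypes had 5 injections of tamoxifen. Untreated mice had no DSS, and colitic mice drank dextran sodium sulfate (DSS), an agent that injures the colonic epithelium, for 7 days, followed by 1 day of water according to the methods of the study, which give an age of 6 to 8 weeks. The colitic Tmem173iΔmye libraries carry the replicate numbers 1, 2 and 5.

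Libraries held from 13823237 to 18718915 counts, and a member had between 130 and 3726 counts in a library. The filter on low values left 24102 genes, all 10 members among them. The labelled tissue was checked against 9 markers of the colonic epithelium, none of which was at 0 in every library of a group and whose summed level ran from 11200 to 31500 CPM (counts scaled to a common library size, with TMM factors). Tmem173, the targeted gene, was at 24.5, 14.4 and 22.9 CPM in untreated Tmem173fl/fl mice and at 17.2, 14.6 and 21.3 CPM in untreated Tmem173iΔmye mice. In colitic mice it was at 42.4, 44.0 and 37.7 CPM against 47.8, 23.8 and 31.1 CPM, so the genotypes overlapped (log2 fold change -0.28, SE 0.26, edgeR adjusted p 0.602). The study reports by qPCR, a different measure from the counts used here, that the knockout reduced the rise of Tmem173 mRNA in inflamed colon. It also reports, from immunofluorescence, a loss of STING in myeloid cells of the colon. A count per gene in whole tissue does not separate exons or cell types, and the loss of floxed exons in myeloid cells was not tested here. By their Xist level, 3 libraries were of female pattern (untreated Tmem173fl/fl 3, untreated Tmem173iΔmye 3 and colitic Tmem173iΔmye 5). Markers of pancreas ranged from 67.8 to 4780 CPM, overlapped between all groups and were highest in colitic Tmem173iΔmye replicate 1.

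The DNA site that NF-κB dimers bind, the κB site, occurs in the control regions of many of these genes. RefSeq windows (GRCm38.p6) of 300 bases, from 250 before to 50 after a transcription start, were found for 7 of the 10 members, in 10 windows. A loose form of the site (GGGNNNNNCC, or GGNNNNNCCC on the other strand) was in all 10 windows and in 50.8% of 32851 windows of all genes, and a tight form (GGGANTTTCC, or GGAAANTCCC on the other strand) was in 0.411% of all windows. Every tight match is also a loose match. Among the members the tight form occurred in windows of Nfkbia and of Nfkb2. One window each of the 3 members called for DSS below (Nfkbia, Nfkb2 and Nfkbie) and of Tnfaip3, the member with the smallest DSS value in Tmem173fl/fl mice, is shown 5′ to 3′ on the strand of the gene, with every base of a loose match in capitals.
Nfkbia, chr12:55492598-55492897, minus strand: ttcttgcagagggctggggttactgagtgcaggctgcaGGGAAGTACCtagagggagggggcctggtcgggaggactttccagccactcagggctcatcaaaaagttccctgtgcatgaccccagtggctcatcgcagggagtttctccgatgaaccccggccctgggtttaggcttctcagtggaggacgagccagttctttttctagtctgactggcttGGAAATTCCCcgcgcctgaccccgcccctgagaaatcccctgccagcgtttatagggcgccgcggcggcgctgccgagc
Nfkb2, chr19:46305445-46305744, plus strand: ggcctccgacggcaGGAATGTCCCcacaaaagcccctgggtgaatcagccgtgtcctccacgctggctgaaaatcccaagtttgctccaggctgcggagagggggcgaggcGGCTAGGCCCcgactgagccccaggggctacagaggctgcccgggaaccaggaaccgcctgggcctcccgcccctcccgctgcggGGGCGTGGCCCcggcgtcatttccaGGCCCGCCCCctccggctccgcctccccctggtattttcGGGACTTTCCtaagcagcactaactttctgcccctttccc
Nfkbie, chr17:45555450-45555749, plus strand: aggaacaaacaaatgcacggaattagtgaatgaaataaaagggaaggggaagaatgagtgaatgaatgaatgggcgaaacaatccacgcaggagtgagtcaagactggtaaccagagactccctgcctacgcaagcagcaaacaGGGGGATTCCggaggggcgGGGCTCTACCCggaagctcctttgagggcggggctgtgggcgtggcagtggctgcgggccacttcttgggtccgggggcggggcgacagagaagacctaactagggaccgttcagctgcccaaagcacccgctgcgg
Tnfaip3, chr10:19015361-19015660, minus strand: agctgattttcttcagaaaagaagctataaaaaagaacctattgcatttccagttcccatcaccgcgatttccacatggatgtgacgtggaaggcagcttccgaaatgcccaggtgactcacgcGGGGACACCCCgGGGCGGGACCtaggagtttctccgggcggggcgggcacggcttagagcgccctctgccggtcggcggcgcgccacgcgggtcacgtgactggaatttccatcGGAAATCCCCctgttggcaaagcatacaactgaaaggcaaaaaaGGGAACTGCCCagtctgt
In Nfkbia the tight match GGAAATTCCC begins 29 bases before the start, and in this Nfkb2 window GGGACTTTCC begins 10 bases after it. Nfkb2 has 3 windows, and the one shown was chosen for its tight match. Another, whose start lies further downstream, holds the same site, and the one at the upstream end of the gene (chr19:46304487-46304786) has 9 loose matches and 0 tight ones. Tnfaip3 has 2 windows, and the one shown lies at the upstream end of the gene, with 8 loose matches against 2 in the other (chr10:19011914-19012213) and 0 tight ones in either. The matches are a description of letters and were not measured as binding.

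Colitis with intact myeloid STING was examined first, in Tmem173fl/fl mice. The genes that rose with DSS included both subunits and feedback regulators. Of the 10 members, 8 rose by an adjusted p under 0.05 (edgeR quasi-likelihood test, Benjamini-Hochberg over all 24102 genes), where 19.5% of all genes tested did so. A call here also needs a log2 fold change of 1 or more in either direction, and 3 members were called (Nfkb2, Nfkbia and Nfkbie), against 14.9% of all genes. The 3 colitic libraries lay above the 3 untreated ones for 9 members, Tnfaip3 being the exception, and this held for 23.9% of all genes. The members' log2 fold changes ran from 0.20 to 1.29 with a median of 0.76.

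**Figure D1:**
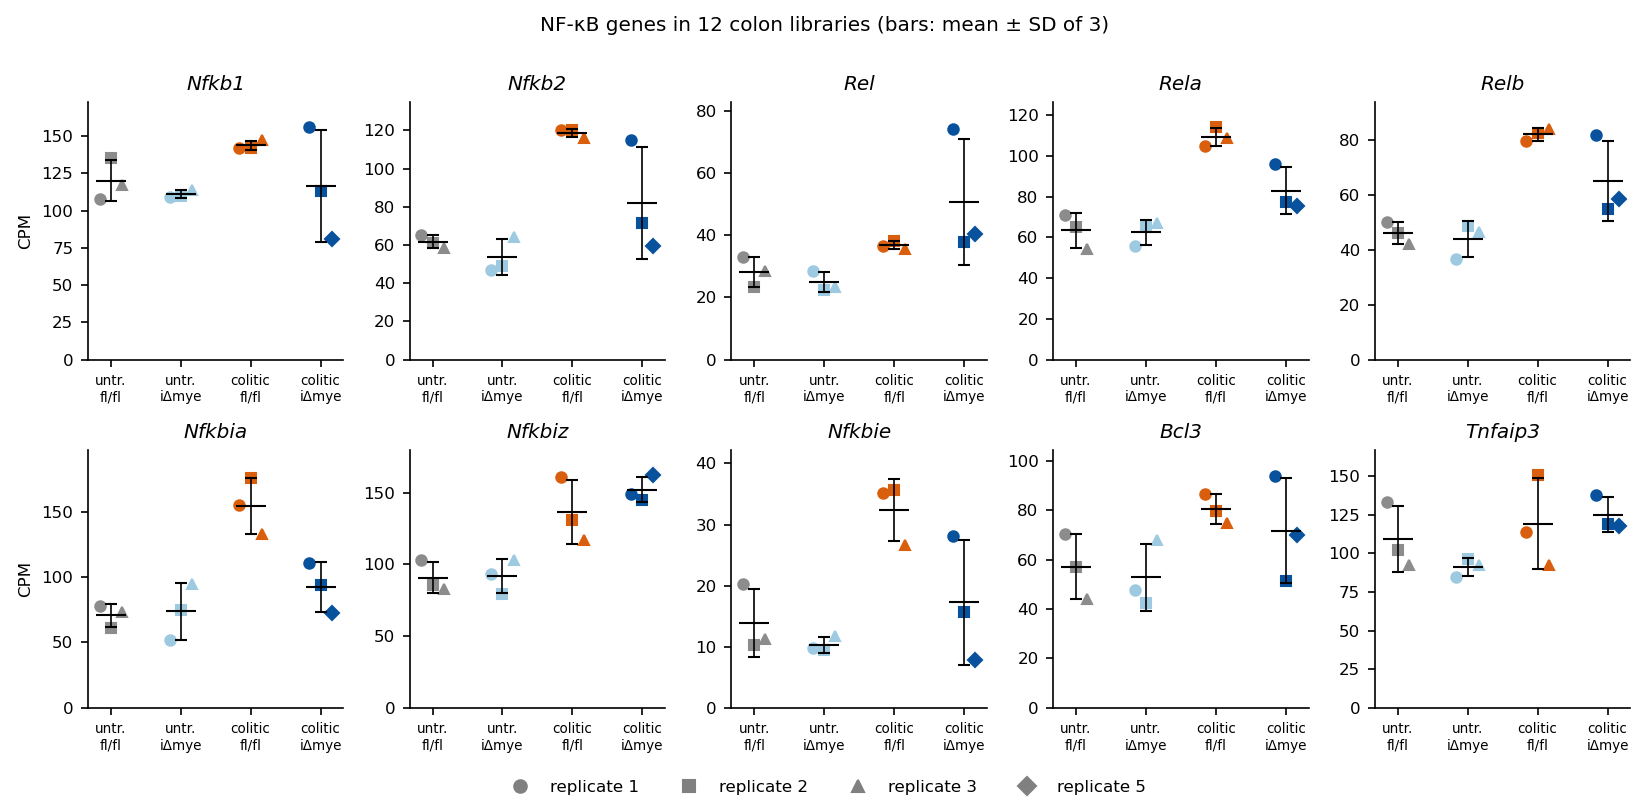
Level of each member in CPM (linear axis from 0) in the 12 colon libraries. Points are single libraries, with shape for the replicate number and colour for the group, and black bars are the mean and SD of 3. Colitic Tmem173fl/fl libraries (orange) lie above both untreated groups for most members, and colitic Tmem173iΔmye libraries (dark blue) are spread, with replicate 1 highest for 9 of 10 members.

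Among the subunits, Nfkb2 (ENSMUSG00000025225, GRCm38 chr19:46304737-46312090, plus strand) encodes p100, the precursor of p52 and the switch of the noncanonical route. It was at 65.2, 61.3 and 58.5 CPM in untreated and at 120, 120 and 116 CPM in colitic Tmem173fl/fl mice, well apart and tight within each group. Its log2 fold change was 1.02 with a standard error (SE) of 0.12 (edgeR adjusted p 0.000137). That value sits at the fold limit, so Nfkb2 was not called under several other settings although its adjusted p stayed under 0.05. Its model overlaps that of Psd on the opposite strand by 4 bases.

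Rela (ENSMUSG00000024927, chr19:5637483-5648130, plus strand), which encodes p65, the main activating subunit of the canonical route, rose from 71.0, 65.1 and 54.2 CPM to 105, 114 and 109 CPM. The log2 fold change of Rela was 0.86 (SE 0.14, edgeR adjusted p 0.000865). Relb (ENSMUSG00000002983, chr7:19606217-19629438, minus strand), the partner of p52, rose by 0.90 on the log2 scale (SE 0.12, edgeR adjusted p 0.000348), from 50.2, 46.1 and 42.0 CPM to 79.4, 82.4 and 84.1 CPM. For both genes every colitic library was above every untreated one by a wide margin.

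Rel and Nfkb1 had the smallest values among the subunits. Rel (ENSMUSG00000020275, chr11:23736847-23770970, minus strand), which encodes c-Rel, an activating subunit best known from lymphocytes and myeloid cells, went from 32.9, 23.4 and 28.4 CPM to 36.6, 38.2 and 35.6 CPM, a rise of 0.45 on the log2 scale (SE 0.16) at an edgeR adjusted p of 0.0492. Rel kept an adjusted p under 0.05 in only 3 of 16 other settings. Nfkb1 (ENSMUSG00000028163, chr3:135584655-135691547, minus strand) encodes p105, the precursor of p50. It was at 108, 135 and 117 CPM in untreated and 142, 142 and 147 CPM in colitic mice (0.33, SE 0.13), and with an edgeR adjusted p of 0.0815 the difference did not pass the test although the libraries did not overlap.

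The classical inhibitors gave the largest values. Nfkbia (ENSMUSG00000021025, chr12:55489410-55492647, minus strand) encodes IκBα, which pulls dimers back out of the nucleus. It was at 78.0, 61.2 and 73.3 CPM in untreated and at 155, 176 and 133 CPM in colitic Tmem173fl/fl mice. The log2 fold change of Nfkbia was 1.2 (SE 0.16, edgeR adjusted p 0.000298), a rise of 2.29-fold. Nfkbie (ENSMUSG00000023947, chr17:45555703-45563169, plus strand), which encodes IκBε, a slower member of the same inhibitor class, rose from 20.3, 10.2 and 11.3 CPM to 35.1, 35.6 and 26.6 CPM, by 1.29 on the log2 scale (SE 0.26, edgeR adjusted p 0.00352). Untreated replicate 1 stood well above the other untreated libraries for Nfkbie and was still below every colitic one.

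The nuclear IκB proteins, which act on dimers already bound to DNA, moved less. Nfkbiz (ENSMUSG00000035356, chr16:55811375-55838899, minus strand), which encodes IκBζ, a coactivator of secondary response genes, was at 103, 85.8 and 83.0 CPM in untreated and 161, 131 and 117 CPM in colitic mice, a rise of 0.66 on the log2 scale (SE 0.16, edgeR adjusted p 0.00862). Bcl3 (ENSMUSG00000053175, chr7:19808462-19822770, minus strand), which pairs with p50 and p52 homodimers, rose by 0.57 (SE 0.17, edgeR adjusted p 0.0257), from 70.3, 56.9 and 44.0 CPM to 86.7, 79.7 and 74.7 CPM. The highest untreated Bcl3 library came close to the lowest colitic one. Over the settings the Bcl3 adjusted p ranged from 0.00778 (edgeR, without untreated replicate 1) to 0.132 (edgeR, 1 fit of all libraries). It was 0.112 without colitic replicate 1 (edgeR), so Bcl3 did not pass in every setting. Bcl3 lies 179 kb from Relb on the same chromosome, and it overlaps antisense genes with few counts.

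Tnfaip3 (ENSMUSG00000019850, chr10:19000910-19015657, minus strand) encodes A20, which removes ubiquitin chains upstream of IKK. Its colitic libraries, at 114, 151 and 92.7 CPM, overlapped the untreated ones at 133, 102 and 92.3 CPM, and the log2 fold change was 0.20 (SE 0.20, edgeR adjusted p 0.496). The interval of the fold (approximate, 95%) ran from 0.869 to 1.51. Without colitic replicate 2 the sign of the Tnfaip3 value turned, to -0.03.

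Across 16 other settings, between 5 and 8 members had an adjusted p under 0.05 in this comparison, and Nfkb2, Rela, Relb, Nfkbia and Nfkbie did so in all of them. The count was 6 without untreated Tmem173fl/fl replicate 3, the one library of female pattern in the comparison, and 5 without colitic replicate 1.

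In Tmem173iΔmye mice the same comparison asks how the colon responds to DSS when STING has been deleted in myeloid cells. All 10 log2 fold changes were above 0, from 0.07 to 1.02 with a median of 0.51, but 0 of 10 members passed the edgeR test, where 1.53% of all genes passed it upwards and 1.48% were called upwards. At an unadjusted p under 0.05 there were 5 (Nfkbiz, Tnfaip3, Nfkb2, Relb and Rel), all higher, where 15.6% of all genes were under it in either direction. DESeq2 gave 2 members at an adjusted p under 0.05 (Rel and Nfkbiz) and 1 call (Rel), against 4.01% and 3.3% of all genes upwards by that tool, and limma gave 0. The colitic libraries lay above the untreated ones for 5 members (Rel, Rela, Relb, Nfkbiz and Tnfaip3), as for 12.1% of all genes.

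Rel had the largest value in this genotype. It was at 28.6, 22.5 and 23.5 CPM in untreated and at 74.0, 37.8 and 40.3 CPM in colitic Tmem173iΔmye replicates 1, 2 and 5, so that all 3 colitic libraries were above the untreated ones and replicate 1 stood far above the other two. The log2 fold change was 1.02 (SE 0.28, edgeR adjusted p 0.0978). It was 0.65 without colitic replicate 1 (adjusted p 0.231), and Rel was called without colitic replicate 5 (adjusted p 0.0212). Over all settings its adjusted p ranged from 0.0106 to 0.347. Markers of B cells, a cell type rich in c-Rel, summed to 323 CPM in colitic replicate 1 against 29.6 and 126 CPM in replicates 2 and 5 and 51.7 to 63.2 CPM in the untreated libraries, with none of the 6 markers at 0 in every library of a group. T cell markers (6 genes) summed to 103, 64.0 and 19.9 CPM and dendritic cell markers (6 genes) to 75.5, 43.2 and 18.8 CPM in colitic replicates 1, 2 and 5, against 44.7 to 104 CPM and 31.4 to 44.2 CPM in the untreated libraries. The part of these cells in the Rel value was not tested.

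Nfkbiz had the lowest edgeR adjusted p of the 10 members in this comparison. It went from 93.3, 79.2 and 103 CPM to 149, 145 and 162 CPM (0.72, SE 0.19, edgeR adjusted p 0.0858), and every colitic library was well above every untreated one. Tnfaip3 was at 84.9, 96.2 and 92.6 CPM without and at 138, 119 and 118 CPM with DSS, 0.45 higher on the log2 scale (SE 0.18, edgeR adjusted p 0.253). For Tnfaip3 the groups were thus apart here and overlapped in Tmem173fl/fl mice, but the difference between the genotypes in its DSS effect, 0.33 (SE 0.27, edgeR adjusted p 0.555), did not pass the test.

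The members called in Tmem173fl/fl mice were scattered in colitic Tmem173iΔmye mice. Nfkb2 was at 47.2, 49.2 and 64.3 CPM in untreated libraries and at 115, 71.3 and 59.4 CPM in colitic replicates 1, 2 and 5 (0.61, SE 0.26, edgeR adjusted p 0.295; 0.29 without replicate 1). Nfkbie was at 9.71, 9.40 and 11.8 CPM without and at 28.2, 15.7 and 7.89 CPM with DSS (0.74, SE 0.40, edgeR adjusted p 0.419; 0.20 without replicate 1). In both genes colitic replicate 1 was near the colitic Tmem173fl/fl level and replicate 5 within or below the untreated range. Nfkbia was at 51.6, 74.9 and 95 CPM and then at 111, 94.2 and 72.7 CPM, with overlap (0.32, SE 0.25, edgeR adjusted p 0.599). With 1 library left out the Nfkbia value ran from 0.12 (untreated replicate 1) to 0.57 (untreated replicate 3). Rela and Relb had log2 fold changes of 0.40 and 0.56 without overlap (Relb 0.37 without colitic replicate 1), and Bcl3 (0.44, and 0.20 without colitic replicate 1) and Nfkb1 (0.07) overlapped, with edgeR adjusted p from 0.244 for Relb to 0.93 for Nfkb1. Without colitic replicate 5, which is the library of female pattern, 2 members were called (Rel and Nfkbie). Without all 3 libraries of that pattern none was called, although several values were larger. Rel was then at 1.17, Nfkbie at 1.235, Nfkb2 at 0.99 and Nfkbia at 0.73 (edgeR adjusted p 0.124, 0.117, 0.104 and 0.18).

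**Figure D2:**
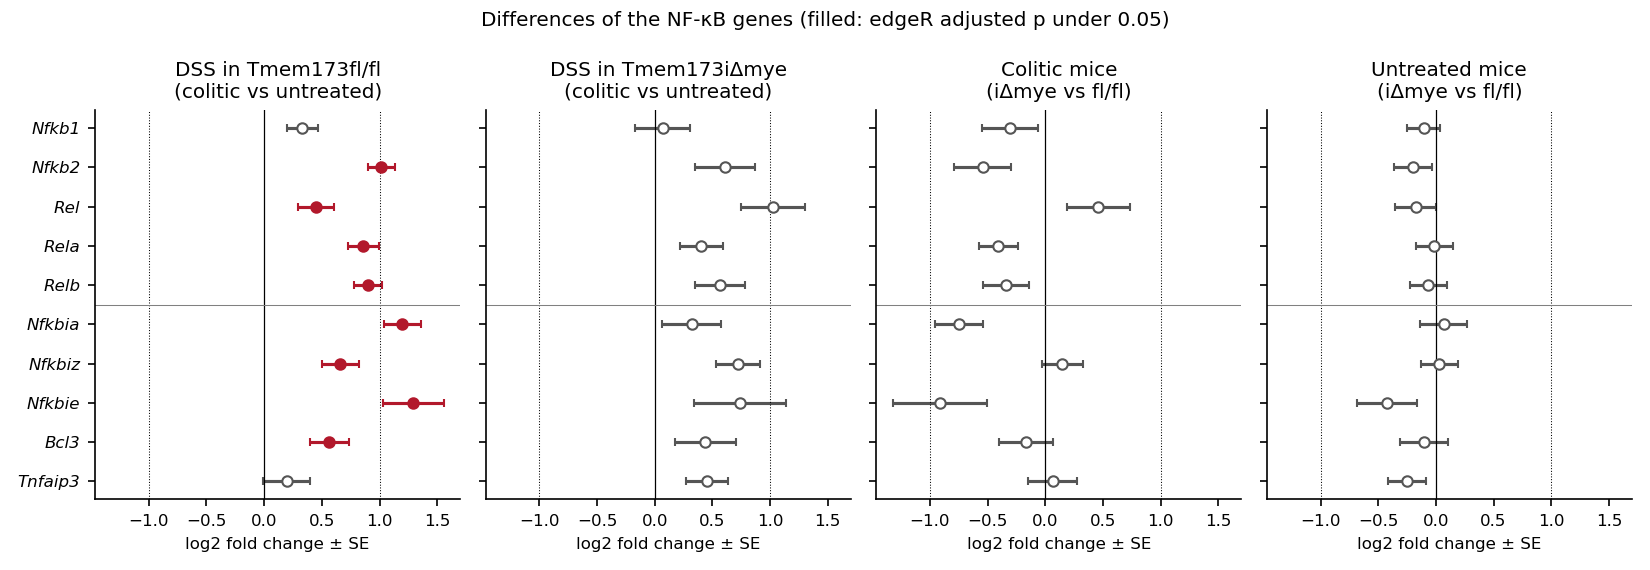
Log2 fold change and SE (bars) of the 10 members in 4 comparisons on one axis, subunits above the grey line and feedback regulators below it; filled red points have an edgeR adjusted p under 0.05 and dotted lines mark log2 fold changes of -1 and 1. Filled points occur only for DSS in Tmem173fl/fl mice, where 8 of 10 members are filled. The comparisons share libraries.

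The colitic mice of both genotypes were then compared, to see which genes differ during colitis once myeloid STING is lost. Nfkbia, Rela and Nfkb2 were lower in every colitic Tmem173iΔmye library than in every colitic Tmem173fl/fl library, 3 of 10 members, as for 14.8% of all genes. By edgeR 0 of 10 members had an adjusted p under 0.05, where 3.11% of all genes had one and 2.81% were called. At an unadjusted p under 0.05 there were 2 (Nfkbia and Rela), near the 20.2% of all genes under it. DESeq2 gave 1 member (Nfkbia) at an adjusted p under 0.05, near its own share of 9.87% of all genes, and 0 calls, and limma gave 0 of either. The log2 fold changes ran from -0.92 to 0.46 with a median of -0.32, and 7 of 10 were below 0.

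Nfkbia, at 155, 176 and 133 CPM in colitic Tmem173fl/fl mice against 111, 94.2 and 72.7 CPM in colitic Tmem173iΔmye mice, gave a log2 fold change of -0.75 (SE 0.21, edgeR adjusted p 0.0933, unadjusted p 0.00627), with an approximate 95% interval of the fold from 0.447 to 0.79. Over the settings its adjusted p ranged from 0.033 to 0.302, and it was 0.0434 without colitic Tmem173iΔmye replicate 1. Nfkbie differed by -0.92 (SE 0.41, edgeR adjusted p 0.252), the largest value among the members, but its replicate 1 lay within the colitic Tmem173fl/fl range. Without that library Nfkbie was called, at -1.48 (edgeR adjusted p 0.0428), and Nfkb2 (-0.88) and Nfkbia (-0.91) had an adjusted p under 0.05 as well. Without colitic Tmem173iΔmye replicate 5, the library of female pattern, the values were instead closer to 0, at -0.57 for Nfkbie, -0.36 for Nfkb2 and -0.61 for Nfkbia (edgeR adjusted p 0.345, 0.442 and 0.152).

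Rela was at 96.1, 77.3 and 75.2 CPM in colitic Tmem173iΔmye mice, below the 105 CPM of the lowest colitic Tmem173fl/fl library (-0.41, SE 0.17, edgeR adjusted p 0.224). Nfkb2 differed by -0.54 (SE 0.25, edgeR adjusted p 0.267), with replicate 1 at 115 CPM just under the lowest colitic Tmem173fl/fl library at 116 CPM. Relb at -0.34, Nfkb1 at -0.31 and Bcl3 at -0.17 were below 0 with overlapping libraries. The Nfkb1 value was -0.59 without colitic Tmem173iΔmye replicate 1 and -0.10 without replicate 5, and that of Relb was -0.55 and -0.22 without replicates 1 and 2. Rel at 0.46 (SE 0.27, edgeR adjusted p 0.381), Nfkbiz at 0.15 and Tnfaip3 at 0.06 were above 0, also with overlap. By sign alone, values below 0 were not shared by all subunits or all feedback regulators, and members were not tested against each other. Without colitic Tmem173iΔmye replicate 1 the value of Rel was 0.07. That of Nfkbiz was 0.06 without colitic Tmem173fl/fl replicate 3 and 0.30 without colitic Tmem173fl/fl replicate 1. The sign of the Tnfaip3 and Bcl3 values turned when single libraries were left out.

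Without DSS no member separated the genotypes. The libraries overlapped for all 10 members, and 0 of 10 had an adjusted p under 0.05 (edgeR), with 0 at an unadjusted p under 0.05 (2.99% of all genes) and 0 by DESeq2 or limma. Over all genes 0.0% were called or passed the adjusted p by edgeR, limma also called 0, and DESeq2 called 8 of 24102. The log2 fold changes ran from -0.42 for Nfkbie (SE 0.26) to 0.07 for Nfkbia (SE 0.20), and the edgeR adjusted p was 1 for each. The Nfkbie value was -0.05 without untreated Tmem173fl/fl replicate 1 and -0.66 without the libraries of female pattern. Lyz2, whose promoter drives the Cre, was at 150, 152 and 277 CPM in untreated Tmem173fl/fl and at 94.4, 76.4 and 115 CPM in untreated Tmem173iΔmye mice (-1.01, SE 0.23, edgeR adjusted p 1). These Lyz2 libraries did not overlap, and the unadjusted p of edgeR was 0.000754. Between colitic genotypes Lyz2 differed by -0.54 (SE 0.25, edgeR adjusted p 0.266), with overlap.

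Whether the DSS effect itself differed between genotypes was tested by the interaction, which gave 0 of 10 members by edgeR, against 2.65% of all genes at an adjusted p under 0.05 and 2.55% called. DESeq2 and limma also gave 0. At an unadjusted p under 0.05 there was 1, below the share of 18.1% over all genes. It was Nfkbia, with an interaction of -0.80 (SE 0.31, unadjusted p 0.0225, edgeR adjusted p 0.195). The fold of Nfkbia with DSS was 0.573 times that in Tmem173fl/fl mice, with an approximate 95% interval from 0.375 to 0.876. Rel had the largest interaction above 0, at 0.65 (SE 0.33, edgeR adjusted p 0.326), and 0.27 without colitic Tmem173iΔmye replicate 1. The median over the members was -0.23. Nfkb2, Nfkbie and Rela had interactions of -0.34, -0.48 and -0.38, which did not pass the test. Without the 3 libraries of female pattern these were 0.0116, 0.0800 and -0.19, and that of Nfkbia was -0.49 (edgeR adjusted p 0.543). Without colitic Tmem173iΔmye replicate 1 alone Nfkb2 was at -0.66 and Nfkbie at -1.03 (edgeR adjusted p 0.0888 and 0.176), and without replicate 5 alone at -0.17 and -0.15. Nfkbie was at -0.85 without untreated Tmem173fl/fl replicate 1, and the Nfkb2 value was -0.18 without untreated Tmem173iΔmye replicate 3.

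Levels per gene length (FPKM) allow the members to be compared with each other. Nfkbia was the most abundant of the 10 in every group, at 42.9 ± 5.24 FPKM in untreated Tmem173fl/fl, 44.9 ± 13.4 in untreated Tmem173iΔmye, 97.1 ± 13.2 in colitic Tmem173fl/fl and 56.8 ± 12.3 in colitic Tmem173iΔmye mice (SD, n = 3 each), and its libraries did not overlap those of the next gene in any group. Rela followed in every group, from 22.5 to 40.8 FPKM on average, but overlapped the gene after it in all groups except colitic Tmem173fl/fl mice. Bcl3, Nfkb2 and Nfkbiz came next, and in untreated mice of either genotype neighbours among them overlapped. Rel and Nfkbie were lowest, from 3.26 to 6.72 FPKM for Rel and from 3.31 to 10.8 FPKM for Nfkbie, and they overlapped each other except in colitic Tmem173fl/fl mice, where Nfkbie was above Rel in every library. The order depends on the length assigned to a gene. The table gives Nfkb1 a length of 12061 bases and its longest coding transcript in GENCODE has 4117 bases, and by that length Nfkb1 stood between rank 3 and rank 6 of the 10 and no longer eighth, with Bcl3 second in every group.

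**Figure D3:**
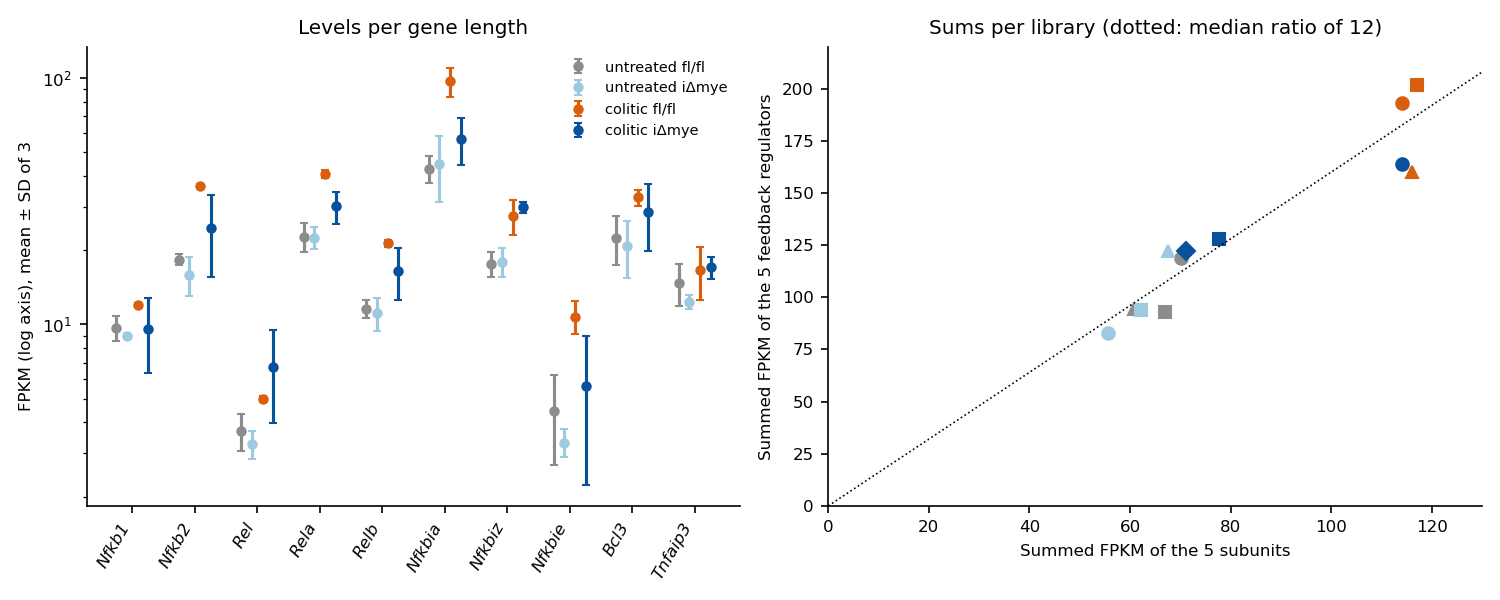
Left, mean and SD of FPKM (log axis) for each member in each of the 4 groups; right, summed FPKM of the 5 feedback regulators against that of the 5 subunits, 1 point per library, with the colours of the left panel and circles, squares, triangles and diamonds for replicates 1, 2, 3 and 5. The points lie along a line through 0, with a ratio between 1.38 and 1.8 in all 12 libraries.

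Because FPKM values can be added across genes, the total of subunit and feedback transcripts can be followed in each mouse. The 5 subunits summed to 66.0 ± 4.78 FPKM in untreated Tmem173fl/fl, 61.8 ± 5.96 in untreated Tmem173iΔmye, 116 ± 1.53 in colitic Tmem173fl/fl and 87.6 ± 23.1 in colitic Tmem173iΔmye mice (SD, n = 3 each). In the last group replicate 1, at 114 FPKM, was at the colitic Tmem173fl/fl level of 114 to 117 FPKM, and replicates 2 and 5, at 77.6 and 71.1 FPKM, were just above the untreated maximum of 70.2 FPKM. The feedback regulators summed to 102 ± 14.6, 99.5 ± 20.2, 185 ± 22.1 and 138 ± 22.7 FPKM in the same order of groups. The ratio of feedback to subunit transcripts was 1.54 ± 0.15, 1.60 ± 0.17, 1.60 ± 0.19 and 1.60 ± 0.14, so group means differed by less than the SD of any group. With the lengths of the longest coding transcripts, an alternative chosen after seeing the data, the ratio was 1.37, 1.40, 1.45 and 1.48. The ratio of Nfkbia alone to the subunits was 0.839 ± 0.109 in colitic Tmem173fl/fl mice and between 0.652 and 0.717 on average in the other groups, with overlap between single libraries. These sums over the members are given without a test.

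The make-up of the subunit pool, also without a test, is given with the lengths of the table first. Nfkb1 made up 12.4% to 16.3% of subunit transcripts in the 6 untreated libraries and 9.2% to 11.9% in the 6 colitic ones, so treatments did not overlap in either genotype. Rela held between 31.0% and 38.0% in every library and was the largest share in each by these lengths. Relb held between 16.4% and 20.6%. Nfkb2 held 27.1% to 28.7% in untreated and 31.0% to 32.4% in colitic Tmem173fl/fl mice, which did not overlap, and 23.5% to 28.4% and 24.8% to 30.6% in Tmem173iΔmye mice, which did. Rel made up 6.44% to 8.69% in colitic Tmem173iΔmye mice against 4.18% to 4.39% in colitic Tmem173fl/fl mice, without overlap. In untreated libraries of both genotypes Rel ranged from 4.54% to 6.71%. With the lengths of the longest coding transcripts the shares and their order were different. Nfkb1 then held 27.1% to 33.9% in untreated and 20.8% to 26.3% in colitic libraries, still without overlap, and its mean share exceeded that of Rela in both untreated groups (31.3% against 25.0% in Tmem173fl/fl and 31.1% against 26.4% in Tmem173iΔmye mice). Nfkb2 then held 16.5% to 17.6% in untreated and 20.3% to 21.4% in colitic Tmem173fl/fl mice, and Rel 4.86% to 6.61% in colitic Tmem173iΔmye against 3.20% to 3.41% in colitic Tmem173fl/fl mice, again without overlap.

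Bulk RNA cannot tell fewer cells of a type from less RNA per cell, and cell type markers moved with several of these results. Neutrophil markers (8 genes) summed to 45.7 to 106 CPM in untreated mice, 454 to 760 CPM in colitic Tmem173fl/fl and 201 to 313 CPM in colitic Tmem173iΔmye mice, with Mmp8 at 0 in all 3 untreated Tmem173iΔmye libraries. Monocyte and macrophage markers (8 genes) stood at 177 to 265, 669 to 898 and 260 to 575 CPM in the same order. Fibroblast markers (5 genes) stood at 932 to 1160, 6770 to 8580 and 1890 to 2780 CPM, and endothelial markers (4 genes) at 85.4 to 104, 379 to 525 and 136 to 285 CPM. The sum of epithelial markers went the other way, at 19700 to 31500 CPM in untreated, 11200 to 17700 CPM in colitic Tmem173fl/fl and 14300 to 24000 CPM in colitic Tmem173iΔmye mice. Single markers did not all follow their sum. With DSS in Tmem173fl/fl mice 6 of 9 epithelial markers were called lower and 1 higher, against 1833 and 3589 of all 24102 genes. Between colitic genotypes 7 of 9 epithelial markers had log2 fold changes above 0, and 7 of 8 neutrophil and 6 of 8 macrophage markers below it. Within the colitic Tmem173iΔmye group, replicate 1 had the highest sums of neutrophil, macrophage, fibroblast, endothelial and B cell markers and was highest for 9 of the 10 members, and replicate 5, with the lowest macrophage and endothelial sums, was lowest for 6. The part of cell composition in the members' values was not tested.

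**Figure D4:**
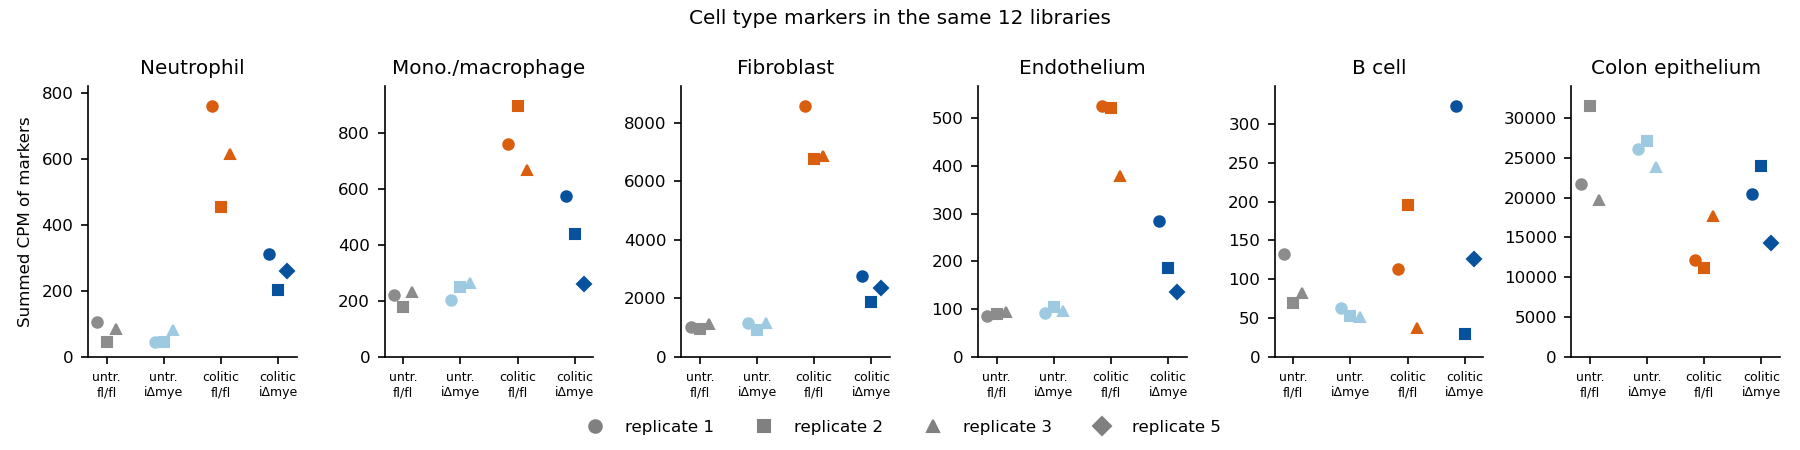
Summed CPM of cell type markers (linear axes from 0, a different scale in each panel) in the 12 libraries, with colour for the group and shape for the replicate number. Neutrophil, macrophage, fibroblast and endothelial sums are highest in colitic Tmem173fl/fl mice and intermediate in most colitic Tmem173iΔmye libraries; replicate 1 of that group has the highest B cell sum, 323 CPM.

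The rest of the pathway was followed through lists of its other genes. Upstream of the members, the IKK complex and its kinases had 3 of 10 genes at an unadjusted p under 0.05 with DSS in Tmem173fl/fl mice. Of all 24102 genes 10720 were under it. In this list 1 gene was called higher and 0 lower, where 14.9% of all genes were called higher. The called gene was Map3k14, which encodes NIK, the kinase of the noncanonical route, at 12.8 ± 1.67 and 31.6 ± 2.69 CPM (SD, n = 3 each; log2 fold change 1.37, edgeR adjusted p 0.000172). Of 17 receptor-proximal adaptors 2 were called higher and 0 lower, also near that share. These were Irak3, an inhibitor of Toll-like receptor signalling, at 2.45 (edgeR adjusted p 1.89e-05), and Card9, an adaptor of fungal sensing in myeloid cells, at 2.28 (edgeR adjusted p 0.00064). Of 13 genes for ubiquitin chain enzymes and readers 1 was called higher, Tnip2 (1.32), a partner of A20, and 1 lower, Rnf31 (-1.28), the catalytic subunit of the linear ubiquitin ligase, with edgeR adjusted p of 0.001 and 0.000738. Of all 24102 genes 3589 were called higher and 1833 lower. Of the 3 other IκB genes 0 were called by edgeR, DESeq2 or limma. An unadjusted p under 0.05 was found for 1 of them (Nfkbid, 0.60, edgeR adjusted p 0.0945), against 10720 of all 24102 genes.

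Known inflammatory targets of NF-κB had larger median values than the members themselves. With DSS 21 of 26 were called higher in Tmem173fl/fl mice, against 14.9% of all genes, and their median log2 fold change was 2.99 against 0.76 for the members. Irf1, an interferon-responsive transcription factor, was called lower (-1.30, edgeR adjusted p 0.0011), and Ccl20, a chemokine of the epithelium, was at -1.28 without passing (edgeR adjusted p 0.0718). Tnf (0.86), Il12b (0.17) and Il23a (-0.51) did not pass either (edgeR adjusted p 0.0743, 0.861 and 0.651). Saa3, an acute-phase protein, went from 3.76 ± 2.39 to 1270 ± 609 CPM, and Csf3, the neutrophil growth factor G-CSF, from 0 counts in all untreated libraries to 54.0 ± 22.3 CPM (SD, n = 3 each). In Tmem173iΔmye mice 15 of the 26 were called higher and 0 lower, with a median of 2.05 (6 by limma), against 1.48% of all genes called higher. DESeq2 called 19 higher there, against 3.3% of all genes by that tool. Il6, the cytokine interleukin 6, went from 0.0402 to 4.70 CPM on average there (edgeR adjusted p 0.000814), with at most 1 count in an untreated library. Between colitic genotypes 10 of the 26 were called lower and 1 higher in Tmem173iΔmye mice (median -1.26), against a median of -0.32 for the members and 2.81% of all genes called in either direction. The one called higher was Nos2, the inducible nitric oxide synthase (1.59, edgeR adjusted p 0.0457). Irf1, Ccl20, Tnf, Il12b, Il23a and Nos2 are named here after their values were seen. By limma 1 of the 26 was called lower and 0 higher between colitic genotypes. DESeq2 called 13 lower and 3 higher (Nos2, Tnf and Ccl20), against 955 and 664 of all 24102 genes. Saa3 at -3.70 and Lcn2, an antibacterial iron-binding protein, at -3.65 had edgeR adjusted p of 0.0167 and 0.0293. The list was drawn up with earlier results of these data known, so its counts are a description.

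In the other 5 lists 4 genes were called between colitic genotypes, 1 of 17 adaptors, 1 of 13 ubiquitin chain genes and 2 of 10 noncanonical ligands and receptors, against 2.81% of all genes. Irak3 was lower in Tmem173iΔmye mice, at 40.7 ± 5.94 against 16.4 ± 4.95 CPM (-1.31, edgeR adjusted p 0.0364). Tnip3, an A20-binding protein, was higher, at 15.2 ± 6.07 against 64.6 ± 19.9 CPM (2.08, edgeR adjusted p 0.0262). Among 10 ligands and receptors of the noncanonical route Tnfsf11, the ligand RANKL, differed by -2.47 and its receptor Tnfrsf11a by 1.03, with edgeR adjusted p of 0.0329 and 0.0371. By limma none of these 4 genes was called, and DESeq2 called all 4, against 1619 of all 24102 genes by that tool. With DSS the same list had 2 genes called higher (Tnfsf11, 3.61, and Tnfsf14, 2.42) and 1 lower in Tmem173fl/fl mice. Of all 24102 genes 14.9% were called higher there and 1833 genes lower. In Tmem173iΔmye mice edgeR called 0 of the 10, with 2 at an unadjusted p under 0.05, where 15.6% of all genes were under it. DESeq2 called 2, against 1137 of all 24102 genes in either direction, and limma called 0. The IKK list had 0 calls by edgeR, DESeq2 and limma between colitic genotypes and for DSS in Tmem173iΔmye mice. There edgeR gave 1 and 2 of 10 genes at an unadjusted p under 0.05, against 20.2% and 15.6% of all genes. Without DSS the genotypes had 0 calls in any of the 6 lists by the same tools. By edgeR 1 gene had an unadjusted p under 0.05 (Tnfsf11, -1.43), where 2.99% of all genes did.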

How the data were processed

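Total colon RNA was prepared with a lithium chloride step and a NEBNext Ultra kit,. Per the submitters' processing notes, CASAVA 1.8, fastp, HISAT2 2.0.5, featureCounts 1.5.0-p3 and DESeq2 1.20.0 were used with GRCm38 (mm10); whether counting used strand is not given in the sources used here. The authors deposited whole-number counts per gene and FPKM (counts per gene length and library total) for each library. The authors also deposited group means, log2 fold changes, p-values and adjusted p-values of their own comparisons, and none of these were used.

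Groups and replicate numbers came from the titles. Tests used the 24102 of 54532 genes that reached an FPKM of 0.1 in 3 or more of the 12 libraries, in R 4.3.3 with edgeR 4.0.16 (TMM scaling, quasi-likelihood test) on the counts of the groups compared, or of all 12 libraries for the interaction. A call is an adjusted p under 0.05 together with a log2 fold change of 1 or more in either direction. The SE is the size of the log2 fold change over the square root of the F statistic. P-values cover the spread between 3 mice a group. The scripts were tested on simulated counts. No 2 libraries of the same group agreed within sampling noise. Alternatives were DESeq2 1.42.0, limma 3.58.1 on log2(FPKM + 0.1) and log2(FPKM + 1), other scalings and filters, 1 fit of all libraries, a replicate block, and libraries left out. A permutation test planned for the ratio of feedback to subunit transcripts is not reported, since the members were chosen together.

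The members and lists were chosen with earlier results of these data known. All members are named. In other lists the named genes are up to 2 per comparison with the largest absolute log2 fold change among calls, or the smallest adjusted p where none was called. Promoter windows are from RefSeq (GRCm38.p6), and overlapping genes and transcript lengths are from GENCODE vM21.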

Additional observations from a re-analysis of the deposited data

Results flagged for a closer look

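No member had a DSS effect that differed between genotypes by the interaction test. In the pathway lists 9 genes did, by an edgeR adjusted p under 0.05 for the interaction and a size of at least 1 on the log2 scale. Below 0 were 7 of the 26 inflammatory targets, and above 0 were 1 of 13 ubiquitin chain genes and 1 of 10 noncanonical ligands and receptors. Of all 24102 genes 389 were called below 0 and 225 above 0, which is 2.55% in either direction. Of the 9, 5 are genes that the naming rule picks in some comparison, and Cxcl1 (-3.38, edgeR adjusted p 0.00838), Ccl2 (-2.27), Plau (-1.89) and Sod2 (-1.07) are the others. The calls depended on the tool. DESeq2 called each of the 9, whereas limma called Saa3, Lcn2, Cxcl1, Sod2 and Tnfrsf11a but not Ptgs2, Tnip3, Ccl2 or Plau. The lists were drawn up with earlier results of these data known, so their counts are a description. Saa3 had an interaction of -4.73 (edgeR adjusted p 0.02), with a colitic level of 1270 ± 609 CPM in Tmem173fl/fl and of 98.6 ± 50.3 CPM in Tmem173iΔmye mice (SD of 3). Lcn2 had an interaction of -4.09 (edgeR adjusted p 0.0134), with 767 and 61.4 CPM on average in the same groups. Ptgs2, the inducible cyclooxygenase, had an interaction of -2.74 (edgeR adjusted p 0.0333), with 365 and 39.2 CPM. Tnip3 and Tnfrsf11a had a DSS effect that was higher in Tmem173iΔmye mice. Tnip3 had an interaction of 2.46 (edgeR adjusted p 0.0244), with 33.3 and 15.2 CPM on average in untreated and colitic Tmem173fl/fl mice and 25.7 and 64.6 CPM in Tmem173iΔmye mice. Tnfrsf11a had an interaction of 1.21 (edgeR adjusted p 0.0244), with 191 and 64.4 CPM in Tmem173fl/fl mice and 169 and 132 CPM in Tmem173iΔmye mice.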

How the results depend on the processing

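The number of members called for DSS in Tmem173fl/fl mice was 2 or 3 under each setting with the fold limit and 8 with an adjusted p alone. For DSS in Tmem173iΔmye mice it was 0 as reported, 1 with DESeq2, with no filter and with 1 fit of all libraries, 2 with the replicate block, and from 0 to 2 with 1 library left out. Between colitic genotypes it ran from 0 to 1 with 1 library left out, and for untreated genotypes and the interaction it was 0 under each setting. Replicate numbers were not taken as pairs of mice in the reported tests. Deviations of same-numbered libraries correlated between -0.123 and 0.131, and those of differently numbered ones between -0.337 and 0.24. With so few libraries a group these correlations cannot exclude pairing. The block changed no other count of calls. No value that turned in sign was called as reported. With 1 library left out Tnfaip3 ran from -0.0322 to 0.36 for DSS in Tmem173fl/fl mice and from -0.0765 to 0.28 between colitic genotypes, Nfkb1 from -0.19 to 0.31 for DSS in Tmem173iΔmye mice, and Bcl3 from -0.42 to 0.0348 between colitic genotypes and from -0.29 to 0.17 for the interaction. With the replicate block Tnfaip3 was -0.0424 between colitic genotypes and Nfkb1 0.0206 for the interaction. Without the libraries of female pattern the interaction was 0.0224 for Nfkb1, 0.0116 for Nfkb2, 0.0800 for Nfkbie and 0.32 for Bcl3. The cause was not tested. The log2 ratio of feedback to subunit transcripts differed between groups by -0.10 to 0.15 over all settings. Each member had 130 or more counts in every library, and the share of counting error in the spread between mice was not tested.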
